A study of Homo sapiens with 60 samples.

Results

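SKBR3 is a human breast cancer line with an amplified ERBB2 (HER2) gene, and the data described here are the 10 arrays that set SKBR3 cells given rapamycin and doxorubicin together against SKBR3 cells given vehicle. They were chosen by cell line and treatment from 60 arrays of 3 lines and 4 treatments, and same-numbered arrays were treated as pairs. The both-drug group is 5 cultures with 20 nM rapamycin plus 30 nM doxorubicin, and the vehicle group is 5 cultures with DMSO; the design text describes independent experiments, numbered 1, 2, 3, 4 and 6. Groups of 5 arrays used for comparison are SKBR3 with 30 nM doxorubicin alone, SKBR3 with 20 nM rapamycin alone, and both drugs against DMSO in HB4a, a normal breast epithelial line, and in C5.2, an HB4a derivative transfected with HER2 cDNA. HB4a and C5.2 medium held added insulin and hydrocortisone and SKBR3 medium did not. SKBR3 is 1 line, so the arrays replicate cultures and not tumours. Exposure time is not given in the sources used here. The letters DRC mark vehicle in the array titles but the combination in the treatment protocol; the source names, which state DMSO, were followed.

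Rapamycin binds FKBP12 and blocks the mTORC1 kinase, which couples nutrients and growth factor signals to translation, ribosome production and lipid synthesis. Doxorubicin intercalates into DNA and traps topoisomerase II on it, leaving double-strand breaks. DNA damage commonly activates p53 and NF-kappa B; SKBR3 is known to carry a mutant p53, and the p53 gene itself was not analysed here.

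Values are log2 expression after RMA, a background correction and summary of the probes of each probe set, and a difference of 1 is a 2-fold change. Of 19775 genes, 5977 exceeded log2 5 on at least 5 of the 20 SKBR3 arrays and were tested with limma, the experiment number as a block; a gene is called at an adjusted p (Benjamini-Hochberg) under 0.05. Vehicle array 3 carried transcripts that the other SKBR3 arrays lacked: the median of 11 genes, chosen as abundant in both other lines and low on every drug-treated SKBR3 array, was 4.68 there, against 0.92 to 1.20 on the other 4 vehicle arrays. CDH1, which SKBR3 is known to lack, reached 5.06 on 1 vehicle array and at most 0.56 on the both-drug arrays. Of 13 luminal markers, 10 were above 5 on all 10 arrays, and no basal, mesenchymal, leukocyte or endothelial marker was. The 3'-to-5' log2 difference of the ACTB control probe sets was 2.28 to 3.24 on the both-drug arrays and 2.02 to 3.68 on the vehicle arrays, so these ranges overlapped. Within pairs the both-drug array was the higher, except for number 2 (2.64 against 3.68). The values were 1.52 to 2.59 with doxorubicin alone and 1.69 to 3.73 with rapamycin alone. Whether this bears on the differences below was not tested.

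Both drugs together changed the expression of 3020 genes, 50.5% of those tested: 1113 rose (18.6%) and 1907 fell (31.9%). Changes of at least 2-fold were found for 112 genes (1.87%): 41 genes rose (0.686%) and 71 fell (1.19%), and 25 of those 71 belong to the G2 and mitosis list. The groups did not overlap for 325 genes above (5.44%) and 375 genes below (6.27%). For 88 of the called rises no vehicle array was above the filter, and for 83 of the called falls no both-drug array was. Without vehicle array 3, 2622 of 5942 genes were called (44.1%), of which 2574 were also called with it. Without the experiment block the count was 1313 (22%), with 499 higher and 814 lower. The split between rises and falls moved with scaling: it was 1542 higher and 1566 lower after centring each array on its median, and 1565 and 1525 after quantile normalization. Over all tested genes the median difference was -0.061, and among called genes the median rise was 0.36 and the median fall -0.42. Gene lists are read against these values below; they were chosen with earlier results of these data known.

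Genes that run mitosis were among the largest falls. Of 38 tested members of the G2 and mitosis list (44 named), 37 fell and none rose, with a median of -1.19; CDC25B, a phosphatase that activates CDK1, was the exception at 0.02. DLGAP5, a microtubule-binding spindle protein, had log2 values of 3.47, 3.16, 3.09, 4.06 and 3.06 on the both-drug arrays, against 6.07, 4.59, 5.53, 5.53 and 5.35 on the vehicle arrays. All 5 both-drug values lay under the lowest vehicle value, and DLGAP5 fell by 2.05 ± 0.18 (SE), 4.13-fold lower (adjusted p = 1.99e-08, limma). ASPM, which organises spindle poles, had 3.01, 3.45, 3.42, 5.30 and 3.50 with both drugs and 5.33, 4.89, 6.01, 6.28 and 5.72 with vehicle. The groups overlapped through both-drug array 4, which was high, and ASPM fell by 1.91 ± 0.17 (adjusted p = 3.24e-08). CCNA2, the cyclin of S phase and G2, had 5.47, 5.21, 4.97, 5.25 and 4.76 with both drugs and 7.18, 6.47, 7.01, 6.88 and 6.26 with vehicle, without overlap, and fell by 1.63 ± 0.11 (adjusted p = 6.98e-10). MKI67, the Ki-67 proliferation antigen, averaged 4.25 ± 0.78 with both drugs and 5.84 ± 0.49 with vehicle (SD, n = 5 each) and fell by 1.59 ± 0.18 (adjusted p = 5.6e-07). BUB1, a kinase of the spindle checkpoint, fell by 1.51, KIF23 and ANLN, which act in cytokinesis, by 1.59 and 1.61, and PBK and SHCBP1 by 1.77 and 1.66. No both-drug array had DLGAP5, MKI67, BUB1, KIF23 or SHCBP1 above log2 5. These genes passed the filter through other arrays, where they were higher, so their part in the list's count is a description. CDK1, CCNB1 and AURKA, named for their roles in mitotic entry after their values were seen, fell by 1.16, 1.24 and 1.19. In bulk RNA, fewer cells in mitosis and less of these transcripts per cell cannot be told apart.

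**Figure D1:**
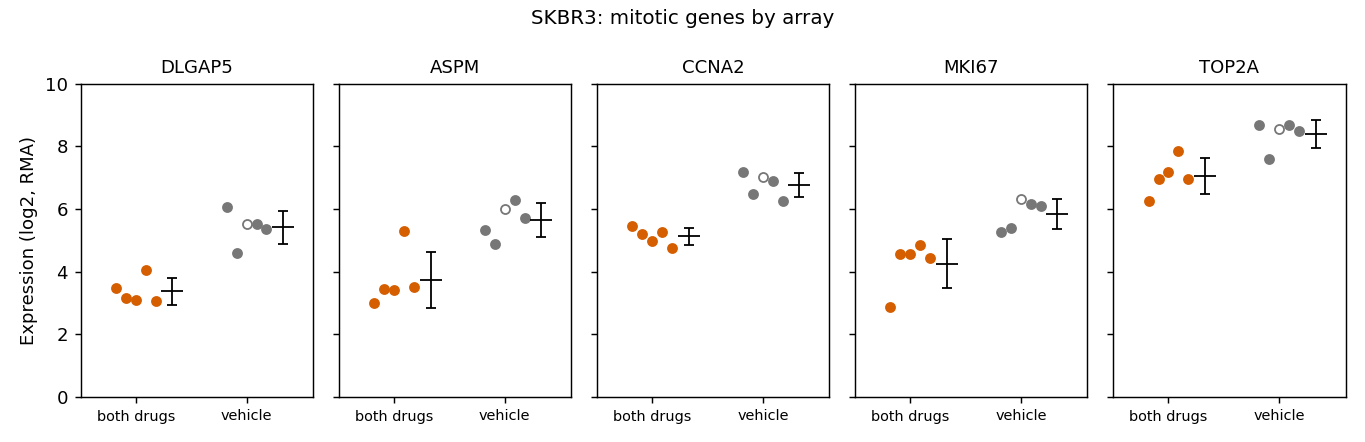
Log2 expression (RMA) of 5 mitotic genes in SKBR3 with both drugs (orange) and with vehicle (grey), 1 point per array (the open point is vehicle array 3); the bars are mean and SD. The both-drug points lie below the vehicle points for DLGAP5, CCNA2 and MKI67, while for ASPM and TOP2A a both-drug array reaches into the vehicle range.

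The promoters of mitotic genes are shown because many genes of this list carry a shared pair of elements, and nearly all of its tested members fell. In RefSeq promoter windows (GRCh38.p14, 300 bases around the start), the cell cycle homology region, searched as TTTGAA or TTTAAA on both strands, was found in 78.7% of 47 windows of 37 list genes, against 24.0% of all 35116 windows. CCAAT was found in 76.6% against 34.6%, and both in 61.7% against 9.3%. Windows were taken for every named list gene that had one, tested and called or not, so these shares are not those of the fallen genes. Among genes named above as falling, the CCNA2 and BUB1 windows had no match to the cell cycle homology region, and the ANLN window had no CCAAT. The motifs in the windows printed here do not overlap each other, and a match describes letters and not a bound site. DLGAP5 (chr14:55191536-55191835, minus strand) and ASPM (chr1:197146620-197146919, minus strand), the pair with the largest falls, are written 5' to 3' with both motifs in capitals.
DLGAP5: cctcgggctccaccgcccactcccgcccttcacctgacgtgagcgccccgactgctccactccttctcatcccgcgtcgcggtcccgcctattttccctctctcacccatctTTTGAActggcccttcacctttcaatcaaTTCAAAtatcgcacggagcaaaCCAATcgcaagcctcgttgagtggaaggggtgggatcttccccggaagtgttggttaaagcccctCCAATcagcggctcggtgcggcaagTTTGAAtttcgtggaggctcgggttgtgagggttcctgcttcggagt
ASPM: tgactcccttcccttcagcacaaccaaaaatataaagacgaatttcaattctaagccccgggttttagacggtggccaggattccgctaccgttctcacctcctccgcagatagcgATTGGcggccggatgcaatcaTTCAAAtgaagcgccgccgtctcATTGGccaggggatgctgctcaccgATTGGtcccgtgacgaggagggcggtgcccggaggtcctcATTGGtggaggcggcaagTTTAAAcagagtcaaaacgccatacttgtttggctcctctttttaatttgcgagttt

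Genes of DNA replication also fell. Of 36 tested members, 21 fell and 1 rose, with a median of -0.31, where 31.9% of all tested genes fell and 18.6% rose. MCM10, a replication initiation factor, fell by 1.40 ± 0.13, and GMNN (geminin), the inhibitor of licensing, had 5.74, 5.30, 5.22, 5.75 and 4.96 with both drugs and 6.90, 6.11, 6.39, 6.59 and 6.07 with vehicle, without overlap, and fell by 1.02 ± 0.09 (adjusted p = 2.16e-08). CDT1, the licensing factor that geminin inhibits, was the member that rose, by 0.61 ± 0.11. MCM10 was under log2 5 on every both-drug array and passed the filter through other arrays. DBF4, the partner of the CDC7 kinase, fell by 1.56 ± 0.11 and SKP2, a ubiquitin ligase subunit that degrades CDK inhibitors, by 0.79 ± 0.07. All 9 tested members of the break repair list fell (32 named, 28 with a value), with a median of -0.51, and so did all 5 tested topoisomerase and adduct repair genes, with a median of -0.64. Without the block 4 of the 9 and 3 of the 5 were called lower, and without vehicle array 3, 8 of the 9 and all 5. TOP2A, the doxorubicin target of dividing cells, had 6.24, 6.95, 7.18, 7.85 and 6.97 with both drugs and 8.67, 7.59, 8.54, 8.68 and 8.49 with vehicle; the groups overlapped, and it fell by 1.36 ± 0.17 (adjusted p = 2.1e-06). TOP2B fell by 0.64 ± 0.14 and TOP1 by 0.70 ± 0.14; without the block the adjusted p of TOP2B was 0.1.

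Inflammatory and acute-phase genes were among the largest rises. CXCL8, the neutrophil-attracting chemokine interleukin-8, had 3.82, 4.56, 5.92, 5.61 and 4.99 on the both-drug arrays, against 1.27, 1.09, 1.13, 1.25 and 1.25 on the vehicle arrays. All 5 vehicle values were at or under their array's median, so CXCL8 was at least 11.2-fold higher with both drugs (fitted difference 3.78 ± 0.29, adjusted p = 4.1e-09). TNFAIP3 (A20), a deubiquitinase that restrains NF-kappa B, had 4.35, 5.11, 5.46, 5.19 and 5.04 with both drugs and 2.69, 2.76, 3.94, 2.18 and 2.79 with vehicle. The groups did not overlap, vehicle array 3 was the highest of its group, and TNFAIP3 rose by 2.16 ± 0.24 (adjusted p = 4.1e-07) with it and 2.41 without it. CFB, a complement protease, had 4.35, 4.58, 5.72, 5.47 and 5.43 with both drugs and 2.12, 2.39, 2.99, 2.56 and 2.56 with vehicle, without overlap, and rose by 2.59 ± 0.15, 6.02-fold (adjusted p = 1.85e-10). Only 3 of the 19 measured members of the NF-kappa B list passed the filter, and all 3 rose; the third was NFKBIA, the NF-kappa B inhibitor, by 0.82. CXCL8 and TNFAIP3 were above the filter on treated arrays alone, so this count is a description. CEBPD, a transcription factor of the acute phase, rose by 1.55 ± 0.09 and IRF1, an interferon-regulated factor, by 1.44 ± 0.10. RAB32, a small GTPase of organelle traffic, rose by 1.77, IGFL1 by 1.92, PLAAT4 by 1.72 and LOC100996740 by 1.62 ± 0.09.

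**Figure D2:**
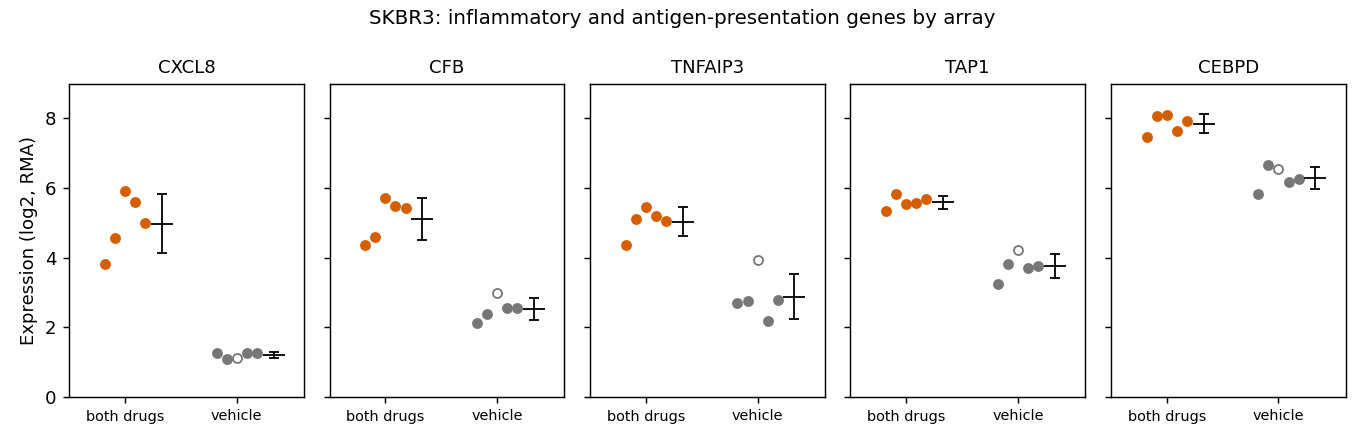
Log2 expression (RMA) of 5 inflammatory and antigen-presentation genes in SKBR3 with both drugs (orange) and with vehicle (grey), 1 point per array (the open point is vehicle array 3); the bars are mean and SD. All both-drug points lie above all vehicle points in each gene.

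Genes that load peptides onto HLA class I rose in part. TAP1, a subunit of the peptide transporter, had 5.34, 5.82, 5.53, 5.56 and 5.69 with both drugs and 3.25, 3.82, 4.22, 3.69 and 3.77 with vehicle, without overlap, and rose by 1.84 ± 0.14 (adjusted p = 4.08e-09). In a list of antigen processing genes put together after values had been seen, 8 of 13 tested members rose and 3 fell, with a median of 0.43. Of all tested genes 18.6% rose and 31.9% fell. No vehicle array had TAP1 or HLA-G above log2 5, and only vehicle array 3 had HLA-B and HLA-C above it (5.35 and 6.15). The places of these genes in the count came mainly from treated arrays, so the count is a description. TAPBP (tapasin) rose by 1.18, the immunoproteasome subunit PSMB10 by 1.03 and HLA-E by 0.65, while B2M, the class I light chain, differed by 0.01. The members that fell were RFX5, a factor of HLA class II transcription, by 0.66, PDIA3 by 0.32 and CANX by 0.23. Without the block the adjusted p (limma) was 0.156 for HLA-C, 0.111 for PDIA3 and 0.136 for CANX. The promoter windows of TNFAIP3 and TAP1 are shown because each holds 2 kappa B motifs, printed in capitals. The kappa B motif, searched on both strands, was found in 36.0% of 25 windows of the NF-kappa B list and in 11.3% of all 35116; CFB had 1 match. CXCL8 and a second TAP1 window (chr6:32852712-32853011) had none, which says only that these letters are not in those windows. The search asked for a start of GGG or an end of CCC and so misses close variants. The CXCL8 window holds tggaatttcc, which departs from the searched pattern only in its first letter. TNFAIP3 is at chr6:137867009-137867308 (plus strand) and TAP1 at chr6:32853655-32853954 (minus strand).
TNFAIP3: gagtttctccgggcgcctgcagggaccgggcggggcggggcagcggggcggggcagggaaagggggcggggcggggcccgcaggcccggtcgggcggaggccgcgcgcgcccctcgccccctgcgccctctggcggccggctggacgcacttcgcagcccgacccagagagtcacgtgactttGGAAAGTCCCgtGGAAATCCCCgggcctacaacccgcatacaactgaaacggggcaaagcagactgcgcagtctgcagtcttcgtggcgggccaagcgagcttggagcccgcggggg
TAP1: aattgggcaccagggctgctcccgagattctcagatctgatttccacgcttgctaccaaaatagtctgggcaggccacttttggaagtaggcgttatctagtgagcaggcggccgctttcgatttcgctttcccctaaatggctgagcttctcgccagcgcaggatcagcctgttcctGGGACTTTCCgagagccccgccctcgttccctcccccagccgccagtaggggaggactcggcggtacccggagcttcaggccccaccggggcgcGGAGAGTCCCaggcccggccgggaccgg

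Lists of growth and lipid genes, many of them downstream of mTORC1 in other cells, held more falls than rises, as did all tested genes (31.9% fell, 18.6% rose). In cholesterol synthesis 9 of 14 tested members fell and 1 rose, with a median of -0.38. ACAT2, which makes acetoacetyl-CoA, had 4.77, 4.57, 4.22, 4.53 and 4.45 with both drugs and 6.15, 5.4, 5.49, 5.41 and 5.09 with vehicle, without overlap, and fell by 1.0 ± 0.12. INSIG1, a sterol-sensing regulator of SREBP, fell by 0.95 ± 0.10. In fatty acid synthesis 8 of 11 fell, ELOVL6 by 0.89, with a median of -0.27, and in glycolysis 11 of 19 fell and 1 rose, with a median of -0.20. PFKFB3, which makes an activator of glycolysis, was the member that rose, by 0.47, with an adjusted p of 0.0882 without the block. Among tRNA synthetases 8 of 17 fell and none rose, and in ribosome biogenesis 16 of 34 fell and 2 rose (median -0.16); NOB1, a nuclease of small subunit maturation, rose by 1.09 ± 0.10. Without the block the falls numbered 8 in cholesterol synthesis, 4 in fatty acid synthesis, 8 in glycolysis, 5 among tRNA synthetases and 9 in ribosome biogenesis. With the mean of a gene's probe sets they numbered 5 in cholesterol synthesis, 3 in fatty acid synthesis and 9 in ribosome biogenesis. Of 21 tested ATF4 and amino acid genes 6 fell and 3 rose, with a median of -0.09. PHGDH, the first enzyme of serine synthesis, fell by 0.89 and DDIT4 (REDD1), an inhibitor of mTORC1, by 0.79 ± 0.07. EIF4E, the cap-binding translation factor, fell by 0.97, while EIF4B and DEPTOR, an mTOR-binding protein, rose by 0.59 and 0.64. In a polyamine list put together after values had been seen, the catabolic enzyme SAT1 rose by 1.42 ± 0.07 and the synthetic enzyme AMD1 fell by 1.15 ± 0.12.

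Genes of insulin and FOXO signalling and immediate-early genes rose in the main fit, with counts that depended on the processing. In the insulin and FOXO list 8 of 9 tested members rose and none fell, with a median of 0.45, where 18.6% of all tested genes rose. TXNIP, an inhibitor of glucose uptake, had 9.22, 9.40, 9.29, 9.18 and 8.91 with both drugs and 8.19, 8.27, 8.51, 8.13 and 7.65 with vehicle, without overlap, and rose by 1.05 ± 0.06 (adjusted p = 2.46e-10). FBXO32 (atrogin-1), a ubiquitin ligase known as a FOXO target in muscle, rose by 1.74 ± 0.09. Of 15 immediate-early genes 11 rose and 1 fell, with a median of 0.42: ATF3 rose by 1.18 and MAFF by 1.01, each with overlapping groups, and EGR1 fell by 0.60 with groups that overlapped (both-drug array 2 at 8.63 and vehicle array 2 at 8.50). Without the block 5 of these 15 were called higher, and 5 of the 9 insulin and FOXO genes. With the mean of a gene's probe sets, 5 immediate-early genes and 1 insulin and FOXO gene were called higher. The 9 tested insulin and FOXO genes were drawn from 23 measured, whose median without the filter was 0.32. Among 23 lysosome and autophagy genes 13 rose and 2 fell, with a median of 0.20; GAA, the lysosomal acid glucosidase, rose by 0.63 and SQSTM1, an autophagy receptor, by 0.56. Without the block 7 of the 23 were called higher and 1 lower. CCNO, an atypical cyclin, rose by 1.80 ± 0.15.

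**Figure D3:**
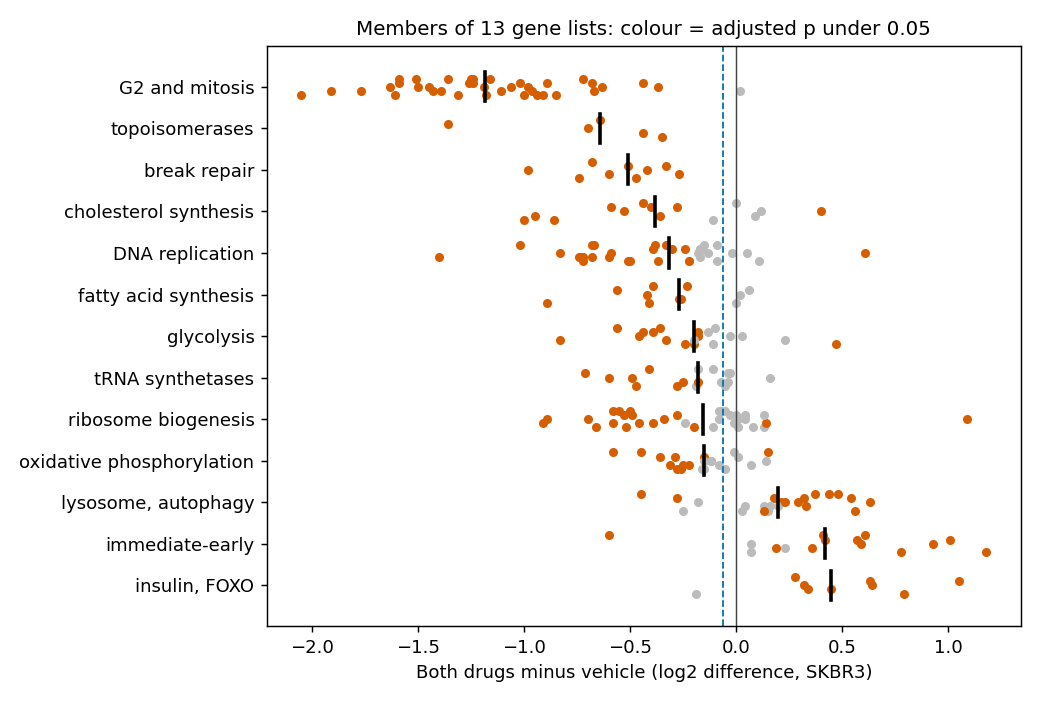
Both drugs minus vehicle in SKBR3 (log2 difference) for every tested member of 13 gene lists; colour marks adjusted p under 0.05 and grey the rest, the black bar is the list's median and the dashed line the median of all tested genes (-0.061). The G2 and mitosis members lie furthest to the left, with a median of -1.19.

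The p53 target lists showed no common direction: of 17 tested members 2 rose and 7 fell, with a median of -0.03; 4 rose and 6 fell without vehicle array 3, and 5 rose after centring each array. Without the block none was called higher and 3 were called lower. The share called in the main fit was 52.9%, near the 50.5% of all tested genes (18.6% rose and 31.9% fell), so these counts do not set the p53 targets apart. MDM2, the p53 ubiquitin ligase and itself a p53 target, had 4.79, 4.53, 4.69, 5.35 and 4.35 with both drugs and 5.62, 4.77, 5.39, 5.62 and 4.89 with vehicle; the groups overlapped, and it fell by 0.52 ± 0.12 (adjusted p = 0.00101), with an adjusted p of 0.111 without the block. CDKN1A (p21) and GDF15, a stress cytokine, did not pass the filter: CDKN1A averaged 4.69 with both drugs and 4.79 with vehicle, and GDF15 2.78 and 2.94. Vehicle array 3 was highest in its group for both, at 6.59 for CDKN1A and 5.84 for GDF15, so the direction of these 2 comparisons of means rests on that array. CDKN1A was 3.99 to 4.66 on the other vehicle arrays and 4.21 to 4.9 on the both-drug arrays. GDF15 was 1.79 to 2.49 and 2.14 to 3.22. For each gene the both-drug array was the higher in 4 pairs and the lower in 1. ERBB2 had 11.53, 11.68, 11.73, 11.64 and 11.72 with both drugs and 10.87, 11.72, 11.56, 11.61 and 11.65 with vehicle. The groups overlapped, vehicle array 1 was low, and the difference of 0.17 ± 0.07 passed only narrowly (adjusted p = 0.0492), with 0.106 without vehicle array 3 and 0.393 without the block. Of 10 tested genes around ERBB2 on chromosome 17, 4 rose and 4 fell. GRB7, an adaptor, rose by 0.76 ± 0.14 (0.69 without vehicle array 1, its lowest) and FBXL20 by 0.46, while the transcription regulators CDK12 and MED1 fell by 0.54 and 0.48. MTOR and IRS2, an insulin receptor substrate, did not pass the filter. MTOR averaged 3.94 with both drugs and 3.96 with vehicle, and IRS2 1.29 and 1.49. Vehicle array 3 was at 3.3 for IRS2 and the other vehicle arrays at 0.67 to 1.42, so the direction of the IRS2 means rests on that array. MYC rose by 0.41 ± 0.08, and CCND1 differed by -0.17 ± 0.10 (adjusted p = 0.146).

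The both-drug values were set beside those of each drug alone, which share the 5 vehicle arrays. Doxorubicin alone changed 299 genes (5%: 200 higher, 3.35%, and 99 lower, 1.66%) and rapamycin alone 2497 (41.8%: 1074 higher, 18%, and 1423 lower, 23.8%). CXCL8 differed from vehicle by 3.78 with both drugs, 3.68 with doxorubicin and -0.01 with rapamycin, TNFAIP3 by 2.16, 2.1 and -0.34, and TAP1 by 1.84, 1.78 and -0.01. CCNO differed by 1.80 with both drugs, -0.15 with doxorubicin and 1.90 with rapamycin, and TXNIP by 1.05, 0.12 and 1.17. The G2 and mitosis list had medians of -1.19 with both drugs, -0.07 with doxorubicin and -1.37 with rapamycin, and the replication list -0.31, 0.26 and -0.61. CEBPD differed by 1.55 with both drugs, 0.93 with doxorubicin and 0.80 with rapamycin. The departure of the both-drug difference from the sum of the single-drug differences was called for no gene (limma, 0 of 5977), and 335 genes (5.6%) had an unadjusted p under 0.05. Of simulated departures of log2 0.5, 43.5% were recovered in this design, and of departures of 1, 95%. FBXO32 differed by 1.74 with both drugs, 1.10 with doxorubicin and 1.31 with rapamycin, a departure of -0.67 ± 0.12, among the 3 genes with the lowest adjusted p (0.0586); it was named after its values were seen.

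**Figure D4:**
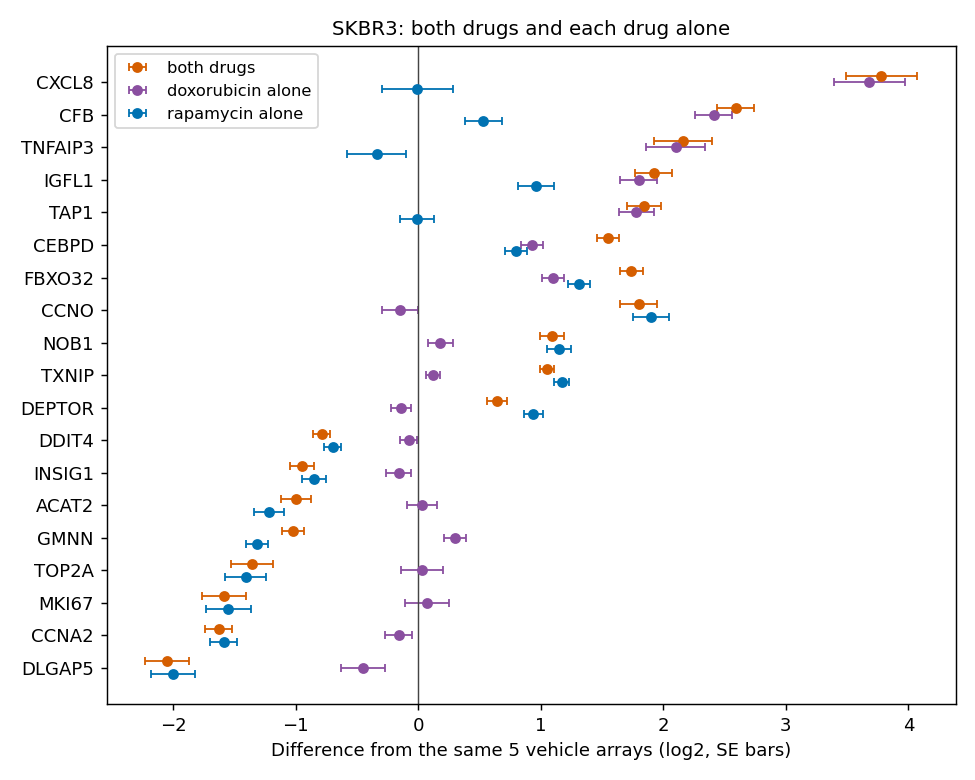
Log2 difference from the same 5 SKBR3 vehicle arrays for 19 genes with both drugs, doxorubicin alone and rapamycin alone, with SE bars from the 20-array fit. The both-drug point lies near the doxorubicin point for CXCL8 (3.78 and 3.68) and near the rapamycin point for DLGAP5 (-2.05 and -2.0).

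The response to both drugs was then compared with that of the other lines, each against its own vehicle, in 1 fit of 60 arrays without a block. It differed between SKBR3 and HB4a for 856 of 7714 genes (11.1%; 289 higher, 3.75%, and 567 lower, 7.35%, in SKBR3) and between SKBR3 and C5.2 for 773 (10%; 483 higher, 6.26%, and 290 lower, 3.76%). The split against HB4a turned with scaling: it was 553 higher and 365 lower after centring each array, and 530 and 427 after quantile normalization. Of 42 mitotic genes tested over the lines, 40 had a lower response in SKBR3 than in HB4a and 40 than in C5.2; the list's median response was -1.19 in SKBR3, 0.32 in HB4a and 0.33 in C5.2. ASPM responded by -2.76 ± 0.55 relative to HB4a (adjusted p = 0.00031). Of 29 p53 targets tested over the lines, 24 rose in HB4a and 26 in C5.2, and 21 were lower in SKBR3 against each line. The share of all genes that rose in HB4a and in C5.2 was not counted, so the 24 and 26 have no general share beside them. Only 17 p53 targets passed the filter in SKBR3. The rest of the 29 passed it through arrays of the other lines, which favours a lower response in SKBR3, so these counts are a description. GDF15 averaged 2.78 with both drugs and 2.94 with vehicle in SKBR3, 9.54 and 6.83 in HB4a, and 8.65 and 5.35 in C5.2, a difference in response of -2.87 ± 0.53 against HB4a and -3.46 ± 0.53 against C5.2, and of -2.15 and -2.74 without SKBR3 vehicle array 3. MDM2 averaged 4.74 and 5.26 in SKBR3, 6.77 and 5.51 in HB4a, and 7.43 and 5.41 in C5.2. CXCL8 went the other way: its fitted response was higher in SKBR3 by 2.81 against HB4a and by 3.70 against C5.2. These are not exact sizes, since all 5 SKBR3 and 2 HB4a vehicle values, and 1 HB4a both-drug value, were at or under their array's median; CXCL8 averaged 4.98 with both drugs and 1.20 with vehicle in SKBR3, 2.74 and 1.76 in HB4a, and 2.46 and 2.38 in C5.2. SERPINA3, an acute-phase protease inhibitor, averaged 3.86 with both drugs and 1.75 with vehicle in SKBR3 and 4.97 and 6.08 in HB4a, a difference in response of 3.22 ± 0.41. Rises of inflammatory genes were not confined to SKBR3. TNFAIP3 averaged 6.85 with both drugs and 4.85 with vehicle in HB4a, and 5.61 and 4.71 in C5.2. The 8 NF-kappa B list members tested over the lines had a median response of 0.93 in SKBR3, 1.38 in HB4a and 0.28 in C5.2. Against HB4a, 1 of these 8 was higher in SKBR3 and 2 were lower, and against C5.2, 4 were higher and 0 lower.

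**Figure D5:**
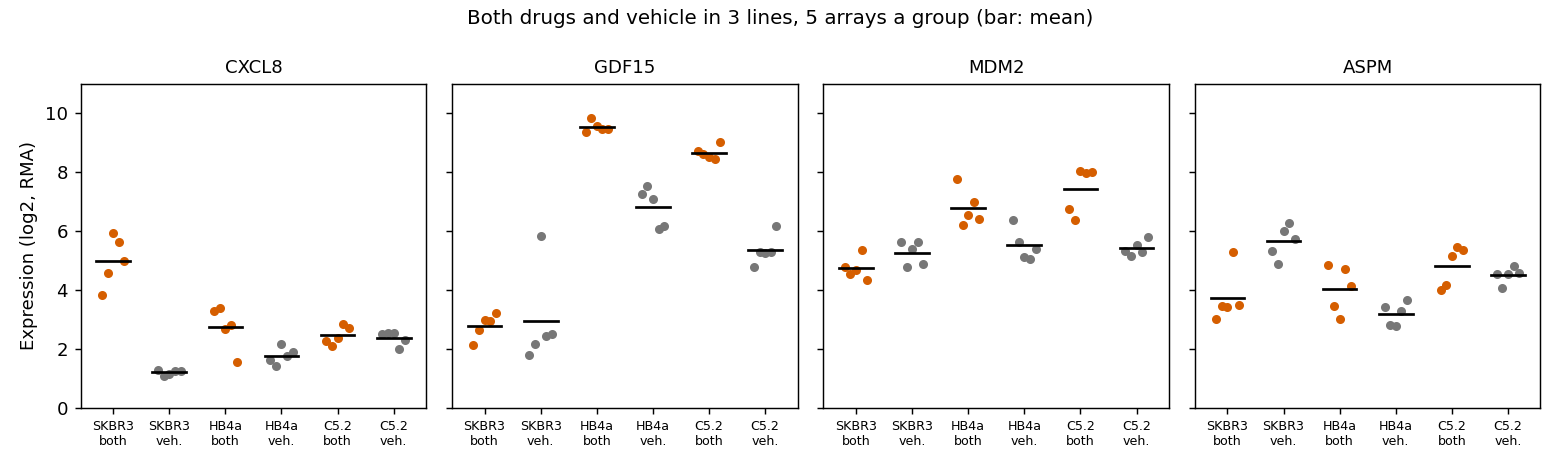
Log2 expression (RMA) of CXCL8, GDF15, MDM2 and ASPM with both drugs (orange) and vehicle (grey) in SKBR3, HB4a and C5.2, 5 arrays a group, with the mean as a bar. GDF15 sits between 8.43 and 9.85 on the both-drug arrays of HB4a and C5.2, and at most at 3.22 on those of SKBR3.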

How the data were processed

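Total RNA was hybridised to Affymetrix U133 Plus 2 arrays; the authors deposited log2 values, made with RMA per the submitters' processing notes (version not given in the sources used here). Of 54675 probe sets, 41091 named 1 gene, 1801 several and 11777 none; the probe set with the highest mean stood for each of 19775 genes. Array medians were 1.415 to 1.57 in SKBR3, and precision is limited by 5 arrays a group. The 20 SKBR3 arrays were fitted with limma 3.58.1 (R 4.3.3, Python 3.11.15), eBayes with trend and the experiment number as a block; line differences used 60 arrays without it. The numbers come from the array titles; deviations of same-numbered both-drug and vehicle arrays correlated at 0.258 to 0.738, and the lowest of any same-numbered pair was 0.238. Names were drawn from the 10 largest rises and falls called with and without vehicle array 3 in 1 direction in all 5 pairs and with a group mean above log2 5, up to 2 called members of each list in each direction, 13 genes of the drugs' pathways and 3 genes a side for other contrasts; others were named after values were seen. Members and lists were chosen with earlier results of these data known. The fit was tested on simulated data: changes of log2 0.5 between both drugs and vehicle were recovered in 83.5%. Of 47 other probe sets of named genes above the filter, 47 had the same sign. P-values measure the spread between these cultures of 1 line. Alternatives changed the filter, the probe set rule, the scaling, the block, the arrays in the fit, the trend and array weights. Promoter windows came from RefSeq tables.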

Additional observations from a re-analysis of the deposited data

Results flagged for a closer look

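Of 240 groups of 5 arrays examined (1 gene in both-drug or vehicle arrays), 22 held an array far from the other 4; chance flags about 1 in 20 groups. Of these, 11 fell on arrays numbered 1. Both-drug array 1 was low for ABCC1 (6.29), EGFR (5.27), ERRFI1 (6.37) and MKI67 (2.88) and high for SKP2 (6.82), and vehicle array 1 was low for ABCC1 (5.76), DUSP4 (6.86), EGFR (5.08), ERBB2 (10.87), GRB7 (5.73) and SLC7A1 (7.84). Both-drug array 2 was high for EGR1 (8.63), both-drug array 4 for ASPM (5.30), EIF4E (6.07) and PBK (5.17), and both-drug array 6 was low for INSIG1 (4.16). Vehicle array 2 was low for TOP2A (7.59) and high for SERPINA3 (2.18), and vehicle array 6 was low for BTG1 (6.65) and KLF6 (4.98). Vehicle array 3 was high for GDF15 (5.84), for KRT13 (4.31) and for the median of the 11 genes that mark RNA of other cells (4.68). What sets these arrays apart was not tested.

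The response to both drugs differed between lines for named genes (limma, SKBR3 minus the other line). Against HB4a the difference in response was -2.76 for ASPM, 2.81 for CXCL8, 1.29 for DDIT4, -2.66 for DEPDC1, -2.87 for GDF15, -1.78 for MDM2, 0.76 for MYC, 2.62 for SCNN1G, 3.22 for SERPINA3 and -2.58 for TOP2A, with adjusted p between 4.46e-08 and 0.0187. Against C5.2 it was -2.61 for CEACAM1, 3.70 for CXCL8, 0.75 for DDIT4, -3.40 for EGR1, -3.46 for GDF15, 2.54 for KRT13, -2.54 for MDM2, 2.56 for PSMB9 and -2.20 for TOP2A, with adjusted p between 9.3e-10 and 0.0182. SCNN1G, SERPINA3, KRT13, PSMB9, CEACAM1, DEPDC1 and GDF15 did not pass the filter in SKBR3. Vehicle array 3 was the highest of its group for KRT13 (4.31) and PSMB9 (2.79). Leaving out 1 array at a time gave a difference against C5.2 of 2.36 to 3.12 for KRT13 and 2.43 to 2.79 for PSMB9. In SKBR3, CEACAM1 was at or under the array median on all 10 arrays, KRT13 on 5 both-drug and 2 vehicle arrays, SCNN1G on 1 both-drug and 5 vehicle arrays, PSMB9 on 1 vehicle array and CXCL8 on 5 vehicle arrays, so their differences in response are fitted values against background and not exact sizes.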

How the results depend on the processing

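For both drugs against vehicle, 1201 genes were called (424 higher, 777 lower) with a filter at log2 above 7, 1723 (658, 1065) with the mean of a gene's probe sets, and 1313 (499, 814) without the replicate block; leaving out 1 array at a time gave 2510 to 3101 (906 to 1197 higher, 1586 to 1926 lower). The departure from the sum of the single drugs, 0 genes, became 2 (2 higher) with the mean of probe sets, 3 (2 higher, 1 lower) after centring and after quantile normalization, 1 (1 higher) without trend, 13 (9, 4) with array weights, and 11 (9, 2) in a fit of 60 arrays with a block. Leaving out 1 array gave 0 to 9 (0 to 7 higher, 0 to 2 lower), with 9 without both-drug array 4. Against HB4a, 401 genes (140, 261) were called with the filter at 7, 553 higher and 365 lower after centring, 530 higher after quantile normalization, 1640 (515, 1125) with array weights and 2669 (869, 1800) with a replicate block; leaving out 1 array gave 709 to 976 (229 to 314, 449 to 664). Against C5.2 the counts were 388 (249, 139) with the filter at 7, 2953 (1351, 1602) with weights and 2607 (1469, 1138) with a replicate block, and 593 to 916 (355 to 563, 238 to 357) leaving out 1 array. The causes were not tested, and the array weights did not converge. For named genes, both drugs against vehicle kept direction in every alternative run; 150 of the recomputed values no longer passed the threshold, 2 newly passed it and 2190 kept their call. Signal near background limits genes of low level.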

Other observations

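Acute-phase genes, in a list put together after values had been seen, were called higher in 5 of 5 tested members (13 named), with a median of 0.73. Of all tested genes 18.6% were called higher and 31.9% lower, the shares to set beside each count in this paragraph. CFB passed the filter through treated arrays alone, and C3, a complement protein that did not pass it, averaged 2.16 with both drugs and 2.52 with vehicle. Vehicle array 3 was at 4.24 for C3. The other vehicle arrays were at 1.9 to 2.32, within the range of the both-drug arrays (1.65 to 2.51). LCN2, a siderophore-binding protein, rose by 0.73 and ORM1, an acute-phase plasma protein, by 0.36. The groups overlapped for both. CEBPB, a transcription factor of the acute phase, differed by 0.15. Without vehicle array 3 the adjusted p was 0.0753 for ORM1 and 0.0758 for CEBPB, and without the block it was 0.241 for LCN2, 0.252 for ORM1 and 0.531 for CEBPB. In the polyamine list 1 of 8 tested members rose and 4 fell, a count that is not read as a result about the list. AZIN1, which protects ornithine decarboxylase, fell by 0.55. Of 9 ERBB family members and ligands tested, 5 rose and none fell, 2 rose without vehicle array 3, and 1 rose without the block.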
